A study of Mus musculus with 11 samples.

Results

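Transcripts of 10 cyclin and cyclin-dependent kinase (CDK) genes were followed in mouse liver after forced expression of the intracellular domains of Notch1 (NICD1) and Notch2 (NICD2). The genes were Cdk1, Cdk2, Cdk4, Cdk6, Ccna2, Ccnb1, Ccnb2, Ccnd1, Ccne1 and Ccne2, and they were chosen by name from the 22911 genes that the RefSeq accessions of the arrays could name. All 10 were found, on 15 probes. RNA of whole liver had been hybridised to 11 single-colour Agilent arrays.

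All mice were C57Bl6/J males, 8 weeks old at injection, and all received AAV8 vectors by the intraperitoneal route at a total of 6e+11 viral genomes per mouse. The GFP group (3 arrays) received the GFP vector alone. The NICD1 group (3 arrays) received 3e+11 viral genomes of the NICD1 vector with 3e+11 of the GFP vector, the NICD2 group (3 arrays) the same doses of the NICD2 and GFP vectors, and the NICD1&2 group (2 arrays) both NICD vectors at 3e+11 each without the GFP vector. Livers were sampled 5 days later. The vectors were built on a CMV promoter, which is not restricted to hepatocytes. In every comparison with GFP, and of NICD1&2 with either single vector, NICD vector took the place of GFP vector. The added NICD vector and the smaller or missing GFP vector dose cannot be told apart there. The labels number the arrays of a group without saying that each came from its own mouse, so p-values measure the spread between these samples.

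Cyclins bind CDKs and switch on their kinase activity, and each pair drives one stretch of the cell cycle. D-type cyclins with Cdk4 or Cdk6, followed by E-type cyclins with Cdk2, carry a cell through G1 and into DNA replication, after which cyclin A and then B-type cyclins with Cdk1 drive G2 and mitosis. Most hepatocytes of an adult liver are quiescent, and they re-enter the cycle after injury or resection, when cyclin D1 is induced early and the mitotic cyclins and Cdk1 later.

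Values are given as log2 normalised signal, the log2 of the signal of a probe less the 75th percentile of its array, so a value of 0 lies at that percentile. Between 57.0% and 62.0% of the spots of an array were well above background by the flag of the scanner software. All 8 hepatocyte markers examined (Alb, Apoa1, Ttr, Hnf4a, Serpina1a, Tat, Cps1 and Ass1) were well above background on all 11 arrays. The arrays lay on 2 slides, 6 on slide 1 and 5 on slide 2, and both slides held all 4 groups. Probes flagged as well above background on 2 or more arrays, whichever their groups, were tested (36060 of 56605). Of the members, 10 probes of 8 genes were tested, and 8 of these probes were well above background on all 11 arrays. Ccnb1 and Ccne2 had no tested probe.

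Among these genes Cdk1, the kinase that drives entry into mitosis, differed most with NICD1: its signal was 1.88-fold that of GFP and 2.35-fold that of NICD2. The other tested member probes differed by less than 1.8-fold in every comparison. No member probe passed an adjusted p under 0.05 in limma (lmFit and eBayes, Benjamini-Hochberg over all 36060 probes) in any of the 6 comparisons of groups or in the interaction of both vectors. The same threshold was passed by 0.00832% of all probes for NICD1 against GFP, 0.0527% for NICD2 against GFP, 0.0998% for NICD1&2 against GFP, 0.00277% for NICD1 against NICD2, 0.0139% for NICD1&2 against NICD1, 0.00277% for NICD1&2 against NICD2 and 0% for the interaction. At an unadjusted p under 0.05 the counts of member probes were 1, 0, 3, 1, 0, 1 and 0 of 10, in that order, beside 5.48%, 6.81%, 14.8%, 3.74%, 12.5%, 8.9% and 7.03% of all probes.

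The study used a looser definition for its arrays, a fold change over 1.8 with a P under 0.15. With P taken here as unadjusted, only Cdk1 qualified. It was 1 of 10 member probes for NICD1 against GFP, where 2.22% of all probes met the definition, and 1 of 10 for NICD1 against NICD2, where 1.26% did. No member probe met it for NICD2 against GFP (1.98% of all probes), NICD1&2 against GFP (6.23%), NICD1&2 against NICD1 (2.7%) or NICD1&2 against NICD2 (3.06%). The study had itself singled out Cdk1, together with the inhibitor gene Cdkn1a, on these same arrays, so neither is independent evidence of its direction. The study also measured both genes by quantitative RT-PCR, which is not part of the array data used here. For the single vectors the members were split evenly. Their median log2 difference was 0.01 for NICD1 and -0.02 for NICD2 against GFP, beside 0.01 and 0.02 over all probes tested, and 5 of 10 were higher and 5 lower in each. For NICD1&2 against GFP 6 were higher and 4 lower, with a median of 0.17 beside 0.12. Against NICD1 it was 6 and 4 (0.08 beside 0.10), and against NICD2 7 and 3 (0.11 beside 0.10).

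**Figure D1:**
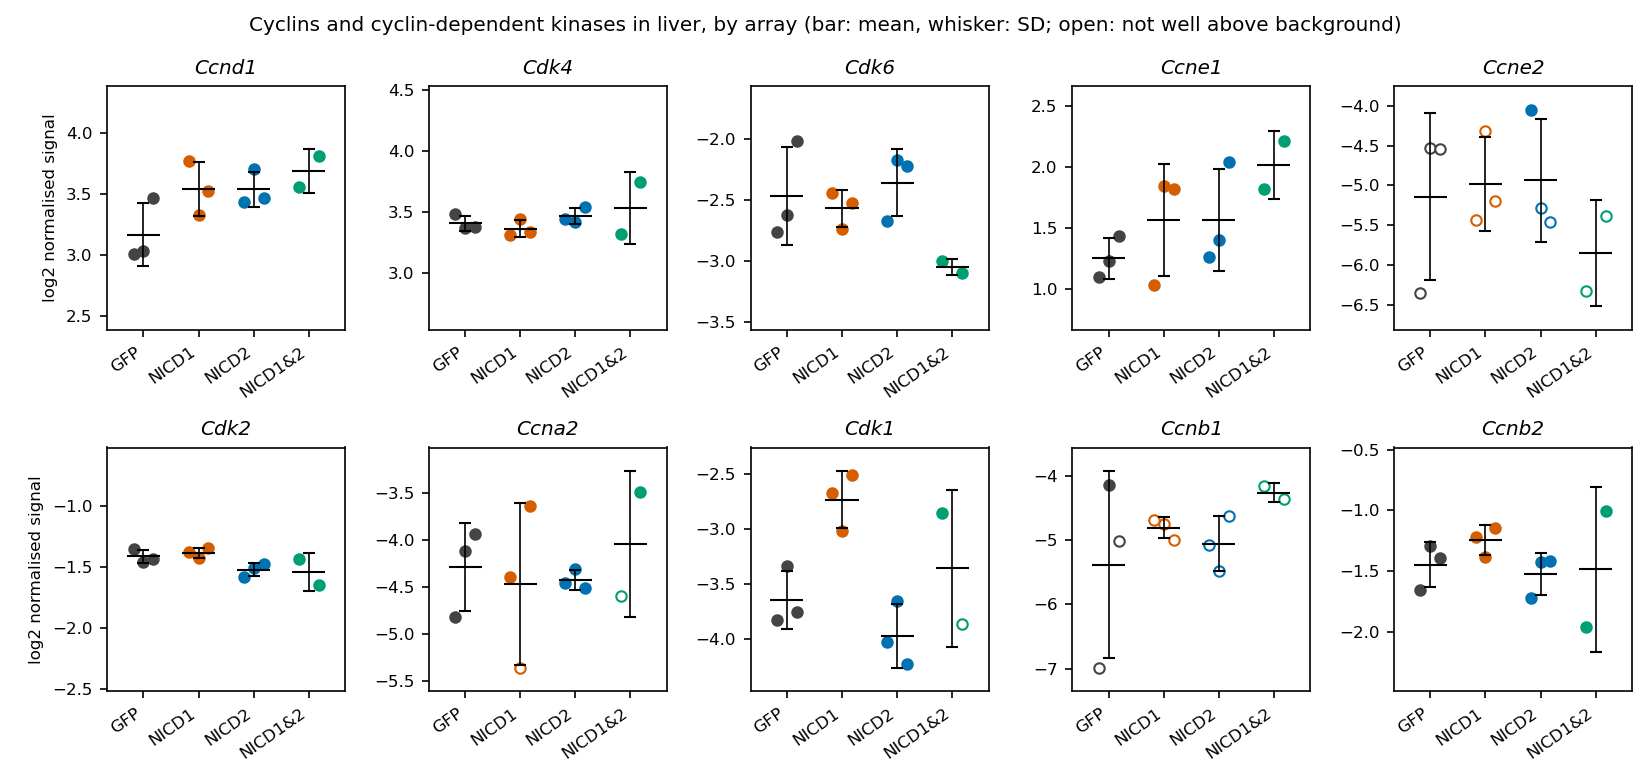
Log2 normalised signal (vertical axis) of the brightest probe of each of the 10 genes on each of the 11 arrays, by group, with bars at the group mean and whiskers of 1 SD; open points were not well above background. The 3 NICD1 arrays of Cdk1 (-3.01 to -2.51) lie above the GFP (-3.83 to -3.34) and NICD2 (-4.22 to -3.65) arrays, and both NICD1&2 arrays of Cdk6 (-3.10 and -3.00) lie below all others.

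Cyclin D1, the G1 cyclin that couples growth signals to Cdk4 and Cdk6, had its lowest mean in the GFP group. The Ccnd1 probe read 3.01, 3.03 and 3.47 in GFP 1, 2 and 3, and 3.77, 3.33 and 3.53 in the NICD1 arrays. It read 3.44, 3.71 and 3.47 in the NICD2 arrays and 3.56 and 3.81 in the NICD1&2 arrays. The third GFP array thus lay among the NICD1 and NICD2 arrays, and only the NICD1&2 arrays stood above all 3 GFP arrays. That separation was narrow, with 3.56 in NICD1&2 1 beside 3.47 in GFP 3, and it depended on the scaling of the arrays. Before scaling, the processed signals were 1760 and 1971 units in NICD1&2, within the 1422 to 2077 units of GFP. Against GFP the log2 difference was 0.38 ± 0.17 (SE) for NICD1 and 0.37 ± 0.17 for NICD2, with limma adjusted p of 0.901 and 0.745. For NICD1&2 it was 0.52 ± 0.19, a 1.43-fold difference with a 95% interval of 0.09 to 0.94, an unadjusted p of 0.022 and an adjusted p of 0.275. Over all probes the median difference of NICD1&2 from GFP was 0.12, so 0.52 is to be read against 0.12. NICD1 and NICD2 differed in Ccnd1 by 0.00 with an interval of -0.38 to 0.39. On slide 1 the NICD1 and NICD2 differences from GFP were 0.75 and 0.56, whereas on slide 2, which held GFP 3 as its 1 GFP array, they were -0.04 and 0.00.

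Cdk4, a kinase partner of the D-type cyclins, was read by 3 probes. On the brightest of them the GFP arrays lay between 3.37 and 3.48, the NICD1 arrays between 3.31 and 3.44, the NICD2 arrays between 3.42 and 3.54, and the NICD1&2 arrays at 3.32 and 3.74. The 4 groups overlapped. Differences from GFP over the 3 probes ran from -0.12 to -0.01 for NICD1, from -0.05 to 0.06 for NICD2 and from -0.11 to 0.22 for NICD1&2. The 95% intervals of the brightest probe were -0.31 to 0.22 for NICD1 and -0.21 to 0.32 for NICD2, which leaves out any 1.8-fold difference. In NICD1&2 the probes did not share a direction, since 2 were higher and 1 lower than in GFP.

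Cdk6, the other kinase partner of the D-type cyclins, had its lowest values in the NICD1&2 group. Its probe read -2.76, -2.63 and -2.01 in the GFP arrays, -2.44, -2.73 and -2.52 in the NICD1 arrays, -2.67, -2.17 and -2.22 in the NICD2 arrays, and -3.00 and -3.10 in the NICD1&2 arrays. Both NICD1&2 arrays lay below the 9 other arrays, while GFP, NICD1 and NICD2 overlapped. The log2 difference of NICD1&2 was -0.58 ± 0.23 (SE) from GFP, -0.48 ± 0.23 from NICD1 and -0.69 ± 0.23 from NICD2, with unadjusted p of 0.035, 0.069 and 0.016 and limma adjusted p of 0.308, 0.424 and 0.561. The difference from GFP was -0.36 without GFP 3 and otherwise -0.73 to -0.54 when single arrays were left out. It was lower within both slides, by -0.31 and -1.08 against GFP. With normexp background correction, which models each spot as signal plus background, and quantile normalization the 3 differences shrank to -0.15, -0.09 and -0.15. That correction adds 50 units to each spot, more than any Cdk6 signal (16.4 to 46.5 units), so differences of such dim probes shrink by construction. The interaction, which asks whether both vectors together departed from the sum of each alone, was -0.59 for Cdk6 with an unadjusted p of 0.092 and an adjusted p of 0.712, the lowest unadjusted p among the members.

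Cyclin E1, which activates Cdk2 at the start of DNA replication, was highest in the NICD1&2 arrays on average. The Ccne1 probe read 1.10, 1.23 and 1.43 in the GFP arrays, 1.04, 1.84 and 1.82 in the NICD1 arrays, 1.26, 1.40 and 2.04 in the NICD2 arrays, and 1.82 and 2.21 in the NICD1&2 arrays. Both NICD1&2 arrays lay above all 3 GFP arrays, and both single-vector groups overlapped with GFP and with NICD1&2. NICD1&2 exceeded GFP by 0.76 ± 0.30 (SE), or 1.70-fold, with an unadjusted p of 0.032 and a limma adjusted p of 0.304. NICD1 and NICD2 exceeded GFP by the same 0.31 ± 0.27. The NICD1 difference was 0.17 without NICD1 2 and 0.58 without NICD1 1, and that of NICD2 was 0.08 without NICD2 3 and 0.47 without NICD2 1. On slide 1 NICD1&2 lay 0.65 above GFP and on slide 2 it lay 0.78 above it, whereas the NICD1 difference was -0.13 on slide 1 and 0.40 on slide 2. For NICD1&2 it met the definition without GFP 3 (0.85) or NICD1&2 1 (0.96). Across all probes the comparisons with NICD1&2 were shifted upward, with a median of 0.12 against GFP, 0.10 against NICD1 and 0.10 against NICD2, so 0.76 is to be read against 0.12.

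The other E-type cyclin, Ccne2, was close to the detection limit. Its single probe was well above background on 1 of the 11 arrays, NICD2 1, so it was not tested and no difference is given. Cdk2, the kinase partner of cyclin E, varied little: its values ran from -1.45 to -1.35 in GFP, from -1.43 to -1.34 in NICD1, from -1.58 to -1.47 in NICD2, and were -1.43 and -1.65 in NICD1&2. All 3 NICD2 arrays lay below all GFP and NICD1 arrays, but narrowly, with the highest NICD2 array at -1.47 and the lowest GFP array at -1.45. The NICD2 mean was 0.11 lower than in GFP and 0.14 lower than in NICD1. The limma adjusted p were 0.919 and 1, and the 95% interval against GFP was -0.31 to 0.10.

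**Figure D2:**
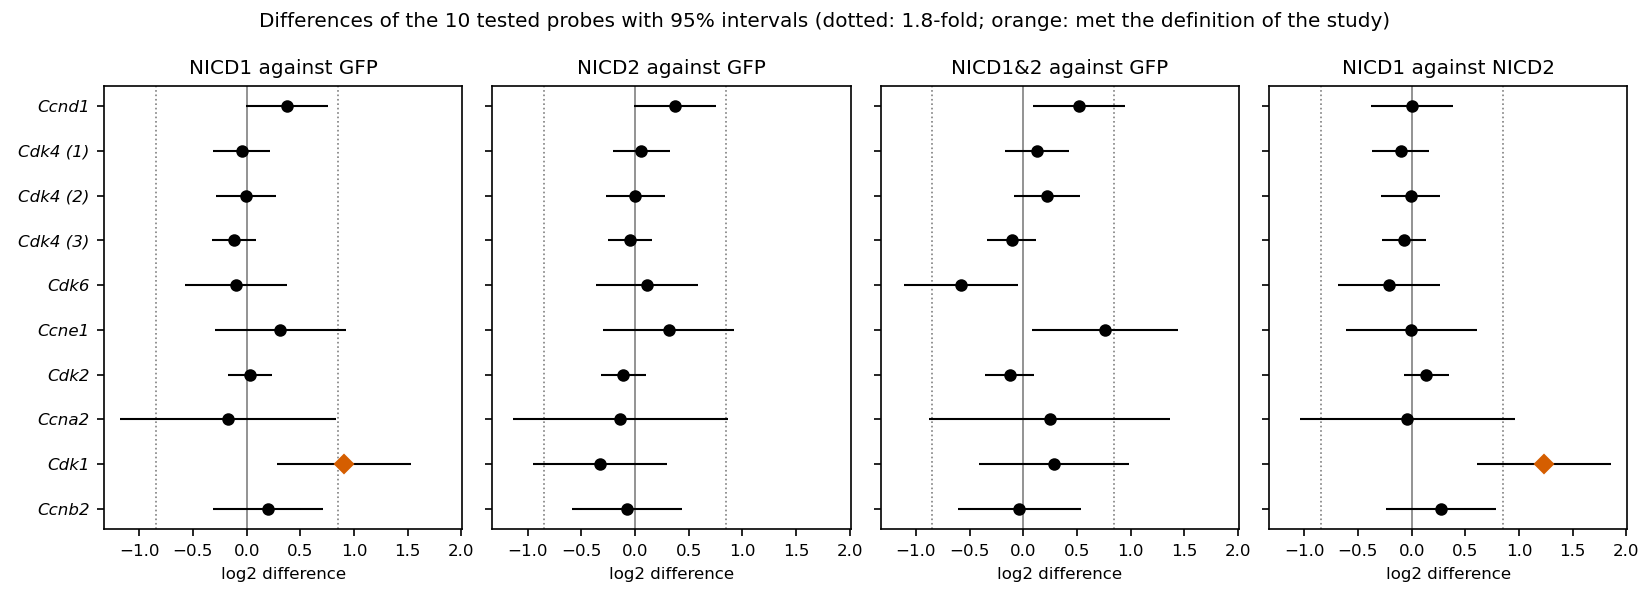
Log2 differences of the 10 tested member probes (points) with their 95% intervals from limma (lines) in 4 comparisons; dotted lines mark 1.8-fold, and numbers after Cdk4 mark its 3 probes from bright to dim. Only Cdk1 met the definition of the study (orange), at 0.91 for NICD1 against GFP and 1.23 for NICD1 against NICD2, while its interval for NICD2 against GFP, -0.95 to 0.30, spans 0.

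The promoters of Cdk1, Ccnb1 and Ccnb2 were searched for sequence elements that are known from cell cycle genes. The cell cycle genes homology region (CHR, searched as TTTGAA or TTTAAA) and the CCAAT box are the elements through which the DREAM and MuvB complexes and NF-Y act on genes of G2 and mitosis, and E2F sites (searched as TTTCCCGC, TTTGGCGC, TTTCGCGC or TTTGCCGC) are those of genes of G1 and S. Both strands of the 250 bases before the RefSeq start site were searched for 7 members, in build GRCm38.p6, and those of Ccna2, Ccnd1 and Ccne2 were not searched. The promoters of Cdk1 and of both genes for B-type cyclins, its partners, are given 5′ to 3′ on the strand of the gene, with every match to these elements or to the RBPJ core TGGGAA, the DNA element of the Notch transcription complex, in capitals. They lie on the minus strand at chr10:69352913-69353162 (Cdk1), chr13:100786487-100786736 (Ccnb1) and chr9:70421555-70421804 (Ccnb2).
Cdk1: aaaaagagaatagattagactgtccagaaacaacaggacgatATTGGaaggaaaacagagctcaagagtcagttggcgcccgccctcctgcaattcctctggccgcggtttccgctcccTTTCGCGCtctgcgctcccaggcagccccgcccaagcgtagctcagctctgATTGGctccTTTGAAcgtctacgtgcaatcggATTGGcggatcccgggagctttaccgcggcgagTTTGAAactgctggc
Ccnb1: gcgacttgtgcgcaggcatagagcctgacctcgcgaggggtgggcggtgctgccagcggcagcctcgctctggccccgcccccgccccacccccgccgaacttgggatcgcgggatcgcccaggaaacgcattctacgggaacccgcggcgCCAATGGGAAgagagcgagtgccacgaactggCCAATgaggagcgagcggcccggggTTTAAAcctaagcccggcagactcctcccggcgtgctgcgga
Ccnb2: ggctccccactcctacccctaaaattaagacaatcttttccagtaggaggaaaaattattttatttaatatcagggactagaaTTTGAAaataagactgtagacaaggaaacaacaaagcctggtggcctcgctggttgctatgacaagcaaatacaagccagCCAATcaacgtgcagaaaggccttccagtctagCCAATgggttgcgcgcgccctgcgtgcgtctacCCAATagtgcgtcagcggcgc

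The Cdk1 promoter held 2 CHR matches, 3 CCAAT boxes and 1 E2F match (TTTCGCGC). The nearer CHR match ended 10 bases before the start and the nearest CCAAT box 44 bases before it. Ccnb1 and Ccnb2 each held 1 CHR match, with 2 CCAAT boxes in Ccnb1 and 3 in Ccnb2. In Ccnb1 one CCAAT box overlapped an RBPJ match by a shared T. Over the 7 members, 4 held a CHR match (Cdk1, Ccnb1, Ccnb2 and Ccne1), 4 a CCAAT box (Cdk1, Cdk2, Ccnb1 and Ccnb2), 2 an E2F match (Cdk1 and Cdk2) and 2 an RBPJ match (Cdk4 and Ccnb1). Among all 32851 RefSeq promoters 25.2% held a CHR match, 33.8% a CCAAT box, 1.86% an E2F match and 21.6% an RBPJ match. These are matches of letters only, and the absence of a match says nothing of what binds elsewhere.

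Of these 3 genes, Cdk1 and Ccnb2 gave signals above background on the arrays. The Cdk1 probe read -3.83, -3.34 and -3.76 in the GFP arrays and -2.68, -3.01 and -2.51 in the NICD1 arrays. In the NICD2 arrays it read -4.03, -3.65 and -4.22. In NICD1&2 the first array read -2.85 and the second -3.86, where the spot was not well above background. All 3 NICD1 arrays were higher than all GFP and all NICD2 arrays, GFP and NICD2 overlapped, and the 2 arrays of NICD1&2 lay apart from each other, the first with NICD1 and the second with GFP and NICD2.

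NICD1 exceeded GFP in Cdk1 by 0.91 ± 0.28 (SE), with a 95% interval of 0.28 to 1.53, an unadjusted p of 0.0094 and a limma adjusted p of 0.781. It exceeded NICD2 by 1.23 ± 0.28, with an interval of 0.61 to 1.86, an unadjusted p of 0.0016 and an adjusted p of 0.857. The exact two-sided permutation test gave p = 0.1 for both, the smallest it can give with 3 arrays against 3 or 2 against 3. NICD2 was not distinguished from GFP, at -0.33 with an interval of -0.95 to 0.30. NICD1&2 differed by 0.28 from GFP, by -0.62 from NICD1 and by 0.61 from NICD2, with adjusted p of 0.648, 0.432 and 0.574. These values rested on which NICD1&2 array was kept. Without the first, which leaves only the spot not well above background, they were -0.22, -1.13 and 0.11. Without the second they were 0.79, -0.12 and 1.11. Order by group mean ran from NICD2 (-3.97) through GFP (-3.64) and NICD1&2 (-3.36) to NICD1 (-2.73), and none of the neighbours in that order differed at an unadjusted p under 0.05.

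The difference in Cdk1 was present within both slides, at 0.91 on slide 1 and 0.99 on slide 2 against GFP, and at 1.16 and 1.46 against NICD2. It rested on dim spots. Cdk1 gave processed signals of 9.35 to 32.9 units where the lowest signals flagged as well above background were 2.37 to 6.52 units, and its median pixel signal was 37 to 63 units beside a local background of 23 to 25.5. Normexp background correction with quantile normalization kept the direction but gave 0.20 against GFP and 0.28 against NICD2, where the added 50 units exceed every Cdk1 signal and shrink its differences by construction. The definition was also missed against GFP with quantile normalization alone (0.84) and without GFP 1 (0.81) or NICD1 3 (0.80), while against NICD2 it was met without any one array, at 1.11 to 1.39.

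Cyclins A2 and B2, which partner Cdk1 in G2 and mitosis, met the definition in no comparison. Ccnb2 read -1.65, -1.29 and -1.39 in the GFP arrays, -1.21, -1.38 and -1.14 in the NICD1 arrays, -1.72, -1.42 and -1.42 in the NICD2 arrays, and -1.96 and -1.01 in the NICD1&2 arrays. The NICD1 arrays lay above the NICD2 arrays, by 0.27 on average (95% interval -0.24 to 0.78, limma adjusted p of 1), and overlapped with GFP, from which they differed by 0.20. The NICD1&2 pair spanned the lowest and the highest Ccnb2 value of all arrays.

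Ccna2 had 2 probes. On the brighter probe its values were -4.82, -4.11 and -3.93 in GFP, -4.39, -5.36 and -3.63 in NICD1, -4.45, -4.31 and -4.51 in NICD2, and -4.59 and -3.49 in NICD1&2, with NICD1 2 and NICD1&2 1 not well above background. All groups overlapped. NICD1 differed from GFP by -0.17, with an interval of -1.18 to 0.83, and the sign turned without NICD1 2 (0.27). The second Ccna2 probe was well above background on 1 array, NICD1 3. Ccnb1 had 3 probes, and 1 of their 33 measurements was well above background, on GFP 2, so it was not tested and no difference is given.

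Probes whose groups did not overlap were counted next. For NICD1 against GFP 1 of 10 member probes stood apart (Cdk1), where 12.4% of all probes did, and for NICD2 against GFP 1 of 10 did (Cdk2), where 13.4% did. For NICD1&2 against GFP it was 3 of 10 (Ccnd1, Ccne1 and Cdk6) beside 34.5% of all probes. NICD1 and NICD2 stood apart for 3 of 10 (Cdk1, Cdk2 and Ccnb2) beside 9.31%. NICD1&2 stood apart from NICD1 for 2 of 10 (Cdk2 and Cdk6) beside 30.7%, and from NICD2 for 1 of 10 (Cdk6) beside 25.2%. The comparisons that share a group share its arrays, so these counts are not independent of each other. In whole liver, fewer cells of a type and less RNA per cell cannot be told apart.

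The inhibitors that hold CDKs in check showed 1 gene of 7 that met the definition, Cdkn1a, which encodes p21. Cdkn1a read 1.20, 1.39 and 2.17 in the GFP arrays, 1.49, 1.63 and 0.15 in the NICD1 arrays, 2.98, 2.55 and 2.82 in the NICD2 arrays, and 3.27 and 3.59 in the NICD1&2 arrays. Every NICD2 and NICD1&2 array lay above every GFP and NICD1 array. NICD2 exceeded GFP by 1.20 ± 0.39 (SE), or 2.29-fold, with a limma adjusted p of 0.565, and NICD1&2 exceeded it by 1.84 ± 0.44, or 3.58-fold, with an adjusted p of 0.167. NICD1 lay 1.69 below NICD2 (adjusted p of 0.940), and NICD1&2 lay 2.34 above NICD1 (adjusted p of 0.253). Over the 11 arrays, which share their groups and slides, Pearson's r of Cdkn1a with Cdk1 was -0.55. The 6 other inhibitors met the definition in no comparison of groups. Among them Cdkn1b, which encodes p27, differed from GFP by -0.09 in NICD1, by -0.10 in NICD2 and by 0.24 in NICD1&2.

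Of 13 other cyclins, CDKs and their close partners 12 were tested, and 1 met the definition in a comparison. Ccng1, cyclin G1, which like Cdkn1a is a target of p53, was 0.86 higher in NICD1&2 than in NICD1 (1.81-fold, limma adjusted p of 0.274), and it missed the definition without NICD1 3 (0.72) or NICD1&2 2 (0.76). It lay at 3.15 and 3.34 in NICD1&2, from 2.13 to 2.60 in NICD1, from 2.72 to 3.05 in NICD2 and from 2.45 to 2.69 in GFP. The other D-type cyclins stayed within narrow ranges over all 11 arrays, from 2.20 to 2.63 for Ccnd2 and from 3.95 to 4.41 for Ccnd3. None of 9 tested genes for phosphatases, kinases and ubiquitin ligase parts that switch CDKs, of 10 listed, and none of 18 genes for pocket proteins, E2F factors and their partners met the definition in any comparison of groups. At an unadjusted p under 0.05 the first of these lists had 1 gene for NICD1 against GFP, 0 for NICD2 and 3 for NICD1&2, and the second had 2, 0 and 3, where 5.48%, 6.81% and 14.8% of all probes passed.

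Markers of proliferating cells had medians close to those of all probes. Of 23 listed genes 20 were tested, of which 1, 4 and 4 had an unadjusted p under 0.05 for NICD1, NICD2 and NICD1&2 against GFP, beside 5.48%, 6.81% and 14.8% of all probes. Against GFP 14 were higher and 6 lower in NICD1, with a median of 0.07 beside 0.01 over all probes. For NICD2 against GFP 10 were higher and 10 lower, with a median of -0.01 beside 0.02, and for NICD1&2 14 were higher and 6 lower, with a median of 0.17 beside 0.12. Mki67, which encodes the antigen Ki-67, read -3.42 to -3.06 in GFP and -3.42 to -3.02 in NICD1. Top2a, the topoisomerase of replicating and mitotic cells, read -4.02 to -3.36 in GFP and -4.34 to -3.88 in NICD1. Across the 11 arrays r with Cdk1 was 0.00 for Mki67 and -0.02 for Top2a, and it ran from -0.64 to 0.60 over the 20 markers with a median of 0.01. The summed level of the list, on a log2 scale, was 5.19 to 5.29 in GFP, 5.16 to 5.32 in NICD1, 5.34 to 5.41 in NICD2 and 5.49 to 5.59 in NICD1&2. NICD2 and NICD1&2 thus lay above GFP in that sum, in which Pcna and Tk1 weigh most, and NICD1 overlapped with GFP.

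Birc5, the survivin gene of the chromosomal passenger complex, was the 1 marker of proliferation that passed an adjusted p under 0.05. It read -0.99, -0.75 and -0.85 in GFP, -0.40, -0.54 and -0.43 in NICD1, -0.23, 0.12 and 0.11 in NICD2, and 0.10 and 0.12 in NICD1&2. Every array of the NICD groups lay above every GFP array. NICD1&2 exceeded GFP by 0.97 ± 0.13 (SE), or 1.96-fold (limma adjusted p of 0.0488), and NICD2 did so by 0.86 ± 0.12, or 1.82-fold (adjusted p of 0.0631). Both kept their direction when single arrays were left out, but the adjusted p for NICD1&2 stayed under 0.05 only without NICD2 1 (0.0363) and reached 0.305 without NICD1&2 2, and the NICD2 difference fell just short of 1.8-fold without GFP 1, NICD2 2 or NICD2 3 (0.80 in each). Rrm2, a subunit of ribonucleotide reductase, met the definition for NICD1&2 (1.74 and 1.96) against GFP (0.70 to 1.07), with an adjusted p of 0.132. Cenpe, a kinesin of the kinetochore, also met it in 3 comparisons, but on spots well above background on 1 of 3 GFP, 1 of 3 NICD1, 2 of 3 NICD2 and 0 of 2 NICD1&2 arrays, and its differences are not given.

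**Figure D3:**
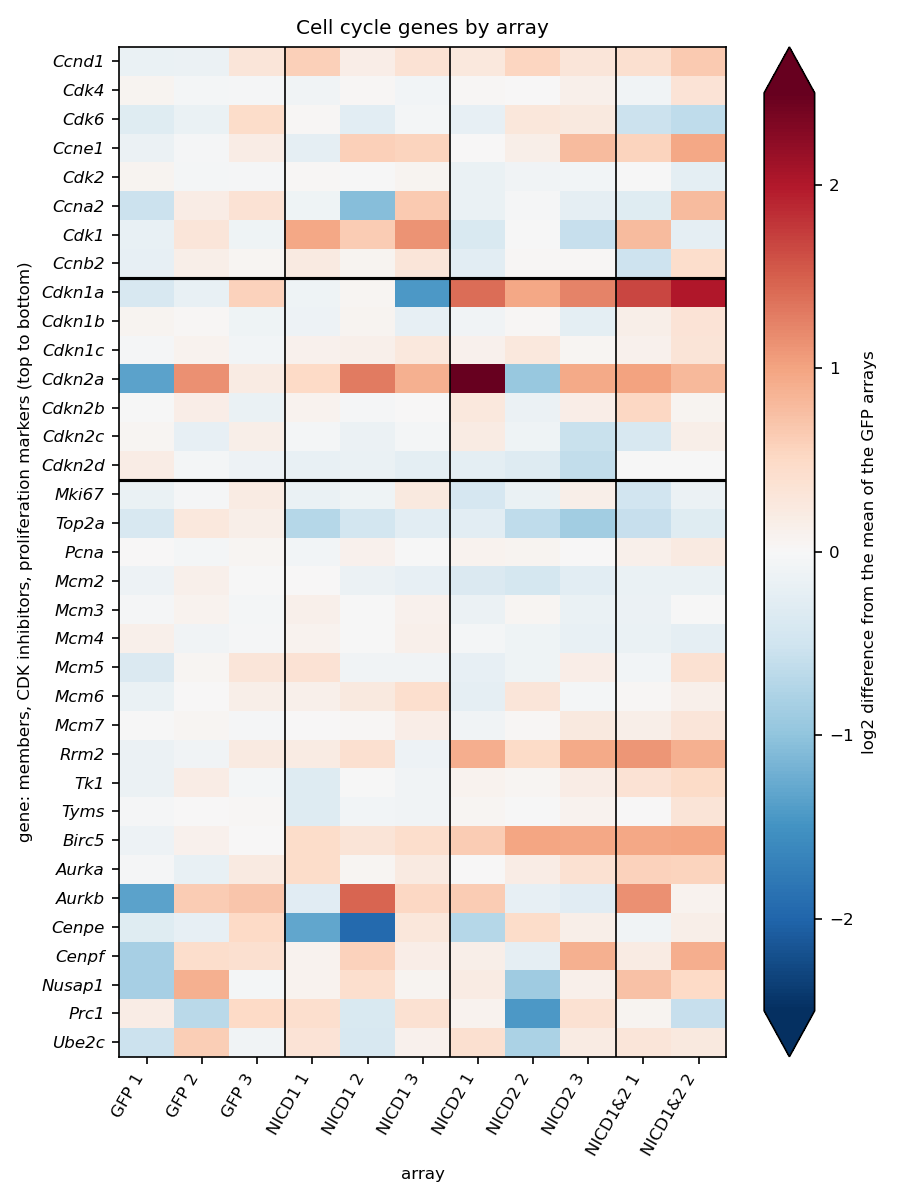
Log2 difference of each array (columns) from the mean of the GFP arrays for the 8 members with a tested probe, the 7 CDK inhibitors and the 20 tested proliferation markers (rows, in 3 blocks), with colours that end at 2.5 on either side. Cdk1 is red in the NICD1 arrays and in NICD1&2 1, Cdkn1a in the NICD2 and NICD1&2 arrays, and Birc5 in all NICD arrays; Cdkn2a, at 2.72 in NICD2 1 and -5.65 to -3.01 elsewhere, runs past the scale.

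Notch targets and inputs to cyclin D1 were read on the same arrays. Nrarp, a feedback target of Notch, was well above background on 0 of 3 GFP, 2 of 3 NICD1, 3 of 3 NICD2 and 2 of 2 NICD1&2 arrays, and its means were -5.98, -4.30, -2.45 and -1.85. Its GFP values were set to the lowest signal well above background on each array, or its own signal where that was higher. Against these it was 1.62-fold higher in NICD1, 5.87-fold in NICD2 and 8.92-fold in NICD1&2. These folds are not strict lower bounds, since spots not well above background can exceed that lowest signal. In NICD1 only 2 of 3 arrays were themselves well above background. The limma adjusted p of the measured differences were 0.839, 0.104 and 0.072. Without GFP 3 the adjusted p for NICD2 and NICD1&2 fell to 0.0218 and 0.0183, and both missed 0.05 without any other one array. Hes1, a Notch target and repressor, exceeded GFP by 1.64 in NICD2 (adjusted p of 0.419) and by 1.36 in NICD1&2 (adjusted p of 0.280), while NICD1 differed from GFP by -0.03 and lay 1.67 lower than NICD2. The receptor genes themselves met the definition in no comparison with GFP: Notch1 differed by 0.22, -0.37 and 0.16 in NICD1, NICD2 and NICD1&2, and Notch2 by 0.29, 0.21 and -0.00. Whether these probes lie within the sequence that the vectors carry was not determined, so they do not check the forced expression. The Notch targets Hey1 (0.11, 0.29 and 0.71) and Heyl (-0.22, -0.43 and -0.64, in the same order) also met the definition in no comparison with GFP. Sox9, a duct and progenitor factor, exceeded GFP by 0.23 in NICD1, by 0.84 in NICD2 and by 1.16 in NICD1&2 (adjusted p of 0.197), and the last was 0.62 and missed the definition without NICD1&2 1. Myc, a growth regulator upstream of several cyclins, ran from -2.39 to 1.39 among the 3 GFP arrays alone, and met the definition for NICD1&2 against NICD2 (1.91, adjusted p of 0.600), which it missed when any one of 6 arrays was left out (differences of 1.35 to 2.46).

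Other liver cells were followed through their markers. Against GFP, 10 of 10 myeloid and 9 of 10 lymphocyte markers were lower in NICD1, and all 20 had a tested probe, while none of them was called and 1 of each list had an unadjusted p under 0.05. In NICD2 7 of 10 myeloid and 9 of 10 lymphocyte markers were lower than in GFP, and in NICD1&2 6 of 10 and 6 of 10 were. Over all 36060 probes 16966 were lower than GFP in NICD1, 16470 in NICD2 and 12615 in NICD1&2. Marco, a scavenger receptor of macrophages, met the definition for NICD1 against GFP at -0.89, and so did Cd79a, a part of the B cell receptor, whose difference is not given since it was well above background on 1 of 3 NICD1 arrays. Itgam, the integrin CD11b, met it for NICD1&2 against GFP at -0.98. Marco missed it against GFP without any one of GFP 1, GFP 3, NICD1 1 and NICD1 2 (-0.82 to -0.59), and Itgam without GFP 1 (-0.80) or NICD1&2 2 (-0.79). Marco also met it for NICD1&2 against NICD1 (1.40) and against NICD2 (1.21), both of which rested on NICD1&2 1, without which they were 0.63 and 0.45. The summed level of the myeloid list was 6.01 to 6.49 in GFP, 5.97 to 6.16 in NICD1, 6.02 to 6.21 in NICD2 and 6.32 to 6.46 in NICD1&2. That of the lymphocyte list was 4.02 to 4.26, 3.84 to 4.09, 4.05 to 4.20 and 4.26 to 4.42 in the same order, and is mostly Cd4. All 6 bile duct markers were higher than GFP in each NICD group, with medians of 0.43, 0.54 and 0.69. Their summed level was 2.80 to 3.32 in GFP, 4.50 to 4.95 in NICD1, 4.50 to 4.94 in NICD2 and 5.03 to 5.33 in NICD1&2, with Spp1, which encodes osteopontin, 1.71, 1.81 and 2.23 above GFP (adjusted p of 0.096, 0.027 and 0.011). With single arrays left out the latter 2 adjusted p ran from 0.0304 to 0.148, over 0.05 without GFP 1, GFP 2, NICD1 1, NICD1 3, NICD2 2 or NICD2 3, and from 0.016 to 0.181, over 0.05 without GFP 2 or NICD1&2 2. Spp1 made up most of that sum, which without it was -0.43 to -0.36 in GFP, -0.24 to 0.02 in NICD1, -0.09 to 0.34 in NICD2 and 0.28 to 0.59 in NICD1&2. The part of these cell types in the levels of Cdk1, Ccnd1 and Ccne1 was not tested.

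Among 13875 named genes well above background on all 11 arrays, those with a pattern most like that of Cdk1 included Ss18l1 (r = 0.85) and Espn, which encodes the actin bundler espin (r = 0.84). For Ccnd1 they were Mtmr10 (r = 0.92), Nup205, a nucleoporin (r = 0.91), and Ip6k2, an inositol hexakisphosphate kinase (r = 0.90). None of these is a gene of the lists above. These r are among the highest of many genes over only 11 arrays, which share their groups and slides. They are a description and were not tested. Between tested probes of different members r over the 11 arrays ran from -0.70 (Cdk2 with the brightest Cdk4 probe) to 0.70 (Ccne1 with the second Cdk4 probe). With Cdk1 it was -0.64, -0.37 and -0.68 for the 3 Cdk4 probes, 0.59 for Cdk2, -0.18 for Cdk6, 0.15 for Ccnd1, 0.13 for Ccnb2, -0.06 for Ccne1 and -0.02 for Ccna2. For deviations from the group means the values of Cdk1 with the Cdk4 probes were -0.90, -0.94 and -0.67, although the Cdk4 values themselves spanned a narrow range. The 2 NICD1&2 arrays deviate from their mean by equal and opposite amounts, so within that pair deviations correlate perfectly by construction. The pair had the largest SD in Cdk1 (0.71) and in the 2 brighter Cdk4 probes (0.30 and 0.28). Cdk1 was not well above background on NICD1&2 2, so these r are not read as a link. The 2 brighter probes of Cdk4 had r = 0.89 with each other.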

How the data were processed

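Liver RNA was read on 11 single-colour arrays. The deposited intensities are processed signals from which the authors' Feature Extraction software (version 11.5.1.1) had subtracted background, and its flag gave detection. The deposited table, used for all main values, holds log2 values that the authors had scaled to the 75th percentile of each array. Each column differed from the log2 processed signal by 1 constant, within 0.01 for at least 99.9% of probes. Spots of a probe were averaged, and genes were named through RefSeq accessions. Where 1 probe stood for a gene it was the one with the highest mean.

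Group means were fitted in 1 model of the 11 arrays (limma 3.58.1, R 4.3.3), checked on simulated data, with an exact permutation test for single genes. Summed levels add linear signals of a list. The alternatives covered scanner signals, scaling, background correction, filters, the fit, blocks, thresholds and leaving out each array. The members and lists were chosen with earlier results of these data known. Genes beside the members were named where they met the definition or were called, with other list genes named after their values were seen. The number of arrays limits the precision. Promoters came from RefSeq (GRCm38.p6); probe sequences and proteins were not used here. One gene that the naming rule would add is not reported here.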

Additional observations from a re-analysis of the deposited data

How the results depend on the processing

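One member probe met the definition for NICD1 against GFP and 1 for NICD1 against NICD2, and 0 did in the 4 other comparisons of groups. The count for NICD1 against GFP went from 1 to 0 with quantile normalization, with normexp (offset of 50 units) and quantile normalization together, with the filter on all 11 arrays, at an unadjusted P under 0.05 with a fold change over 2, and at an adjusted p under 0.15. It ranged from 0 to 1 when single arrays were left out (0 without GFP 1 or without NICD1 3). For NICD1 against NICD2 the count went to 0 with normexp and quantile normalization together, the filter on all 11 arrays and an adjusted p under 0.15, and to 2 with no filter on dim probes. That filter on all 11 arrays removes Cdk1, which was below background in NICD1&2 2, and the offset exceeds every Cdk1 signal. With no filter the counts against NICD1&2 became 1 for GFP, 1 for NICD1 and 1 for NICD2, on probes otherwise not tested. Leaving out arrays gave 0 to 1 for NICD1&2 against GFP (1 without GFP 3 or NICD1&2 1), 0 to 2 against NICD1 (2 without NICD1&2 1) and 0 to 1 against NICD2 (1 without NICD2 1 or NICD1&2 2). The cause of the other changes was not tested. Where 1 array was left, it was assumed to vary like the other groups.

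With the replicate block the count for NICD1&2 against GFP became 1 (Ccne1, at 0.91), and no other count changed. Replicate numbers were not taken to pair the samples: over 15 pairs of arrays with the same number, r of the deviations from group means ran from -0.41 to 0.17, and 6 exceeded 0.1. Median differences over the member probes stayed within the spread between replicates in all 132 alternatives, and no value that met the definition changed sign. Signals near background limit Cdk1 and Ccna2, and Ccnb1 and Ccne2 were not tested.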
